A study of Mus musculus with 2 samples.

Results

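High mobility group (HMG) proteins are small, abundant proteins that bind DNA or nucleosomes and shape chromatin. The genes described here are Hmgb1, Hmgb2, Hmgb3, Hmgn1, Hmgn2, Hmgn3, Hmga1 and Hmga2. They were chosen by name, 8 of the 43346 mouse genes in the tables, and all 8 were found by gene ID. Both libraries form 1 group, thymus of strain B6NCrl mice at postnatal age 0 days, for which the labels name no altered gene and no treatment. Pup 6 of a Charles River female gave replicate 1 and pup 7 gave replicate 2, with 1 donor listed for the pair and sex not collected. Each library was made from 13 pg of total RNA of more than 200 nucleotides, equated in the labels with 1 cell, with spike-in RNA added. The assay is titled single cell RNA-seq, yet the RNA was extracted from tissue, so each library mixes many cell types. In such samples, fewer cells of a type and less RNA per cell cannot be told apart.

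HMGB proteins carry a pair of HMG boxes, folds that bend DNA, followed by a tail of acidic residues. HMGB1 and HMGB2 help the RAG recombinase to bind and pair its DNA signals during antigen receptor assembly, and HMGB1 released from cells acts as an inflammatory signal. HMGN proteins bind nucleosomes directly and compete there with linker histones. HMGA proteins hold AT-rich DNA through short motifs called AT hooks, and Hmga2 is known for high levels in embryonic and fetal cells.

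The sequences below show what sets the subfamilies apart, since the same sequence determines which reads can be told from those of related genes. They are coding stretches from the GENCODE M21 transcripts, 5′ to 3′. In the HMGB genes the capitals mark the codons of the acidic tail at the end of the reading frame, which is 30 residues long in Hmgb1, 23 in Hmgb2 and 20 in Hmgb3.
Hmgb1: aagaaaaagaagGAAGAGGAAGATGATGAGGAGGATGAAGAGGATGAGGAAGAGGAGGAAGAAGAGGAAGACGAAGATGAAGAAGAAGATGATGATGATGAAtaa
Hmgb2: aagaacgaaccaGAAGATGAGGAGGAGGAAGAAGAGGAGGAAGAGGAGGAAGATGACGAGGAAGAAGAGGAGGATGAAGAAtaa
Hmgb3: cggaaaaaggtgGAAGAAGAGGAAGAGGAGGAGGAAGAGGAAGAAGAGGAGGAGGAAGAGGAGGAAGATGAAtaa

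In the HMGN genes the capitals mark the codons of the nucleosome-binding core, present 1 time in each. The core codes for the same residues in all 3 genes although the bases differ.
Hmgn1: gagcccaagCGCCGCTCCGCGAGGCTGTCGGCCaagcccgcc
Hmgn2: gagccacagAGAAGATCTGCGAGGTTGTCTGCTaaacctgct
Hmgn3: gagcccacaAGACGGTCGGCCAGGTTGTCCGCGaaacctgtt

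In the HMGA genes the capitals mark the codons at the centre of the first of 3 AT hooks.
Hmga1: aagcgaggcCGGGGCAGGCCAcgcaagcag
Hmga2: aagcgaggaCGCGGCCGACCCaggaagcag

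The proteins computed from these frames have 215 residues in Hmgb1, 210 in Hmgb2, 200 in Hmgb3, 96 in Hmgn1, 90 in Hmgn2, 99 in Hmgn3, 107 in the longest form of Hmga1 and 108 in Hmga2. Hmgb1 and Hmgb2 were identical at 79.5% of aligned residues, Hmgb1 and Hmgb3 at 70.2%, and Hmgb2 and Hmgb3 at 71.4%. The HMGN proteins were less alike, from 38.5% for Hmgn1 and Hmgn3 to 49.5% for Hmgn2 and Hmgn3, and Hmga1 and Hmga2 were identical at 44.6%.

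The libraries held 25999043 and 31902773 expected counts in mouse genes, where an expected count is an estimated number of reads that need not be whole. At 1 or more counts, 10275 and 11764 genes were read. Of the labelled tissue's markers, 6 of 6 T-lineage genes were read in both libraries (summed level 4477 and 3949 TPM), led by Lck at 1424 and 1403 TPM. TPM is a count corrected for transcript length and depth, summing here to 1000000 over the mouse genes of a library. Thymic epithelial markers were read for 4 of 5 genes in both libraries (977 and 966 TPM), and Foxn1, their defining regulator, had 0 counts in replicate 1 and 1129 in replicate 2. Krt8 alone gave 772 and 846 TPM of that sum. Psmb11 stood at 87.8 and 16.3 TPM, Krt5 at 97.1 and 54.1 and Epcam at 20.4 and 33.4. The 5 erythroid markers summed to 3377 and 8314 TPM, the 3 heart muscle markers to 843 and 297 TPM, the 4 macrophage markers to 354 and 433 TPM, the 4 mesenchymal markers to 327 and 461 TPM and the 3 endothelial markers to 64.8 and 67.3 TPM. Single markers within these sums could differ widely. In the macrophage list Adgre1 had 2630 and 0 counts and Lyz2 43 and 2602. In the endothelial list Cdh5 had 102 and 2296 counts, Pecam1 3688 and 2826, and Kdr 0 in both. Mesenchymal Pdgfra had 1 and 0. Of markers averaging at least 100 counts, 2 of 5 thymic epithelial and 2 of 4 macrophage genes differed at least 4-fold. For heart muscle it was 1 of 3, for endothelium 1 of 2 and for mesenchyme 0 of 3. For erythroid genes it was 0 of 4 and for the T lineage 0 of 6. The share over all genes averaging that many was 50.9%. Of B cell markers, Cd79a had 0 and 2 counts and Ms4a1 0 and 1.

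Of the 8 HMG genes, 6 were read deeply in both libraries and the remaining pair, Hmgn3 and Hmga2, were at or under the floor of 3 counts. Hmgn2, the nucleosome-binding member with the highest level (chr4:133964738-133968650, minus strand, GRCm38), stood at 2785 TPM in replicate 1 and 2510 TPM in replicate 2 (mean 2648 ± 195, SD, n = 2). It ranked 22 among protein-coding genes in each library, from 65586 and 66836 counts. Hmgb1, the RAG cofactor and alarm signal (chr5:149046702-149184489, minus strand), stood at 2370 and 1867 TPM (2118 ± 356), ranks 32 and 40. Of this level, 1139 and 1058 TPM lay in short models annotated as retained introns and 1231 and 809 TPM in protein-coding models. Both libraries put Hmgn2 above Hmgb1, by 1.18 and 1.34 times, and the values of the genes did not overlap. That order holds without the pseudogene copies of Hmgb1 and turns when they are added, to 4406 TPM for Hmgb1 against 2692 TPM for Hmgn2.

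Hmga1, the AT-hook protein (chr17:27556497-27563674, plus strand), stood at 622 and 535 TPM (579 ± 61.0, SD, n = 2). Hmgb2, the HMGB protein best known from dividing cells (chr8:57511907-57515999, plus strand), stood at 474 and 410 TPM (442 ± 45.4). Hmgn1, the other nucleosome-binding member read (chr16:96120618-96127729, minus strand), stood at 266 and 245 TPM (255 ± 15.4). Hmgb3 (chrX:71555918-71560676, plus strand) had the lowest level of those read, 166 and 154 TPM (160 ± 8.47). The order of the 6 genes was the same in both libraries, and no neighbours in it had overlapping values. The closest neighbours were Hmgn2 and Hmgb1 in replicate 1 (1.18 times) and Hmga1 and Hmgb2 in replicate 2 (1.31 times), and the widest gap was the 3.81 and 3.49 times between Hmgb1 and Hmga1.

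**Figure D1:**
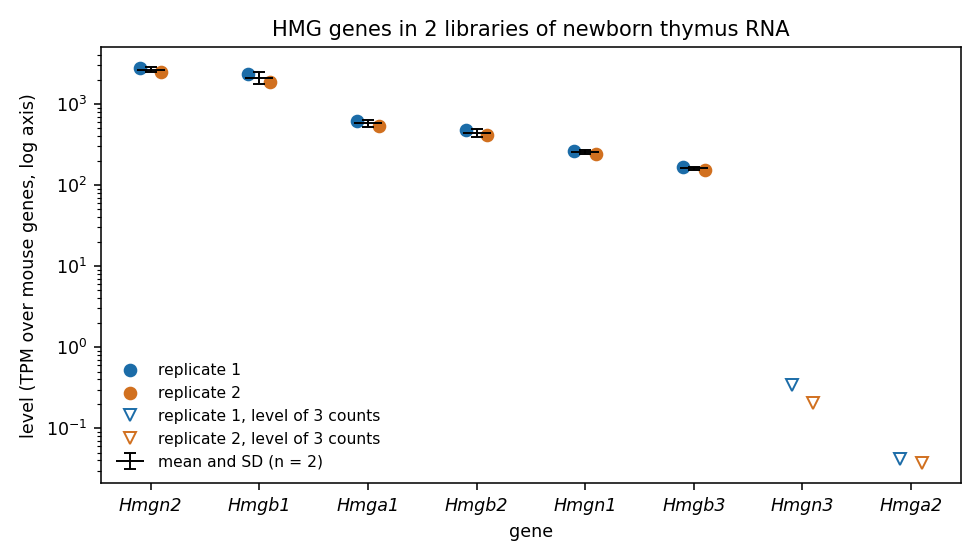
Level of each HMG gene in the 2 libraries (filled circles, TPM on a log axis) with the mean and SD of 2. Open triangles give the level that 3 counts would have for Hmgn3 and Hmga2, which lay at or under that floor, while the other 6 genes lie between 154 and 2785 TPM.

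Summed over subfamilies, HMGB genes held 3010 and 2430 TPM, HMGN genes 3052 and 2754 TPM and HMGA genes 622 and 535 TPM. The 8 genes together held 6684 and 5720 TPM of each 1000000 (mean 6202 ± 681, SD, n = 2). Hmgn2 alone made up 41.7% and 43.9% of that sum and Hmgb1 35.5% and 32.6%. The HMGB sum was 2720 ± 410 TPM and the HMGN sum 2903 ± 210 TPM, closer together than the spread of the former. These sums and shares leave out the pseudogene copies described further on. With the copies' TPM added, a comparison chosen after seeing the data, the sums were 5140 ± 560 and 2951 ± 221 TPM, and with the copies' counts on each member's own length 3956 ± 568 and 2924 ± 213 TPM.

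Hmgn3, the third HMGN protein (chr9:83109948-83146685, minus strand), had 1 count in replicate 1 and 0 in replicate 2, where 3 counts would equal 0.338 and 0.203 TPM. Hmga2 (chr10:120361275-120476469, minus strand) had 0 counts in both libraries. The limit that a count of 0 allows for it, 3 counts, equals 0.0415 and 0.0367 TPM. Neither gene was thus read above the floor of 3 counts at this depth, in libraries made from 13 pg of RNA. The limits cover read counting only, since the tables hold no molecular identifiers.

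The 6 HMG genes read differed little between the libraries, Hmgb1 the most, at 1.27 times. In log2 of replicate 2 over replicate 1, with 1 TPM added to each value, Hmgb1 gave -0.34, Hmga1 -0.22, Hmgb2 -0.21, Hmgn2 -0.15, Hmgn1 -0.12 and Hmgb3 -0.11. None of the 6 was 4-fold apart, whereas 50.9% of the 9341 genes averaging at least 100 counts were. At 2-fold the share was 67.7% of those genes and again 0 of the 6. The HMG genes lie among the deeper genes, and of the 2544 genes averaging at least 3000 counts 15.7% were 4-fold and 39.5% 2-fold apart. That count minimum was chosen after seeing the data. An absolute log2 ratio below that of Hmgb1 was held by 25.3% of the 2544 genes.

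All 6 HMG genes were lower in replicate 2, with a median of -0.18, but the direction depends on the scaling for Hmgn1. Its log2 ratio turned to 0.02 when counts were scaled with edgeR's TMM factors and to 0.07 with DESeq2's size factors, which raise every ratio by 0.12 and 0.17 over scaling by mouse counts. The median over the 9341 genes was 0.17 in TPM, and 47.0% of them were lower in replicate 2. By counts scaled to the library total, replicate 2 held 0.781 times the Hmgb1 count of replicate 1 (95% exact interval 0.772 to 0.791), and the ratio for Hmgn1 was 0.933 (0.908 to 0.959). These intervals cover the counting of reads only, not amplification from 13 pg of RNA or the assignment of shared reads. For that assignment, the deposited posterior SD of the Hmgb1 count in replicate 1 (247) exceeded the square root of that count (228). In replicate 2 the SD was the lower of the pair (168 against 223). It was the lower in both libraries for each of the other HMG genes read. The T-lineage sum also was lower in replicate 2 and the erythroid sum higher, and their part in these ratios was not tested. With 1 group of 2 libraries no test between groups is possible, and the spread between the libraries holds pup, handling and library preparation at once.

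**Figure D2:**
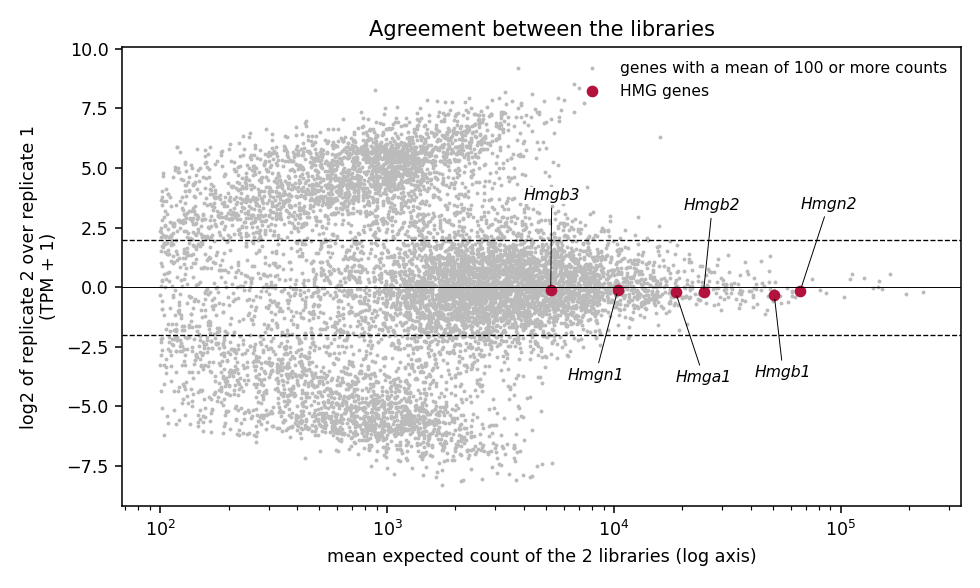
Log2 ratio of replicate 2 over replicate 1 (TPM + 1) against the mean expected count (log axis) for genes averaging at least 100 counts (grey) and the 6 HMG genes read (red). Dashed lines mark 4-fold, and the 6 HMG genes lie between -0.34 and -0.11.

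Many reads of these genes cannot be placed by sequence alone. Processed pseudogenes are copies of spliced mRNA inserted elsewhere in the genome, and a search of all M21 transcripts for stretches at least 90% identical over at least 50% of a member's coding length found 88 of them for the 8 genes. Hmgb1 had 55, Hmgn2 15, Hmgb3 8, Hmgb2 5, Hmgn1 4 and Hmga2 1, and none was found for Hmgn3 or Hmga1. Of the 88, 6 averaged at least 100 counts.

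The largest share belonged to Gm15387, a processed pseudogene of Hmgb1 (chr15:74093686-74094333, minus strand). It was given 23873 counts in replicate 1 and 25043 in replicate 2, equal to 45.9% and 50.3% of the count of Hmgb1. In TPM it stood at 2128 and 1975 (2052 ± 108, SD, n = 2), beside the 2370 and 1867 of Hmgb1, and the values of the gene and its copy overlapped. The copy is 648 bases long and keeps a full reading frame of 215 residues. Over that length it differs from the Hmgb1 coding sequence by 1 base, the substitution A21G (Hmgb1 base, position counted from the first base of the start codon, copy base), which changes no residue. The first 60 bases of each are shown with that base in capitals.
Hmgb1: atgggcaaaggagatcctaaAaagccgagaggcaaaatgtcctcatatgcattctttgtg
Gm15387: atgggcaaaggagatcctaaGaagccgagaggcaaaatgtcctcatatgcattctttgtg

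Of the 549 windows of 100 bases in Gm15387, 528 were also found in Hmgb1, and all 549 were found in Hmgb1 or another of its copies. No window of that length was its own, so the split between Hmgb1 and Gm15387 rests on the authors' estimate. The deposited posterior SD of the Hmgb1 count, a measure of how firmly reads were assigned, was 247 and 168 counts, while for Hmgn1 it was 1.99 and 2.36 counts.

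Other copies of Hmgb1 were given fewer counts. Gm21596 (chr2:113919247-113920562, minus strand) had 3872 and 3103 counts and shared 764 of its 1217 windows with Hmgb1. Hmgb1-ps8 (chr10:22262742-22263367, minus strand) had 651 and 295 counts and shared no window. All 55 copies together held 28958 and 29179 counts, or 35.8% and 36.9% of the sum of gene and copies.

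Adding the copies changes the order of the genes. With the TPM of its processed pseudogenes added, Hmgb1 rose to 4771 and 4041 TPM (4406 ± 516, SD, n = 2) and lay above Hmgn2, which reached 2837 and 2546 TPM (2692 ± 206). When the counts of the copies were placed on the length of Hmgb1 itself, a choice made after seeing the data, Hmgb1 stood at 3691 and 2960 TPM and Hmgn2 at 2807 and 2528 TPM. In both versions each Hmgb1 value exceeded both Hmgn2 values. With copies at 90% identity added, the Hmgb3 ratio turned from -0.11 to 0.03, and with those at 95% it was -0.12, an alternative added after seeing the data. Between these limits lies Gm8850, picked for its values, which is 92.2% identical to the Hmgb3 coding sequence, shares no 100-base window with it and was given 2 and 189 counts.

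**Figure D3:**
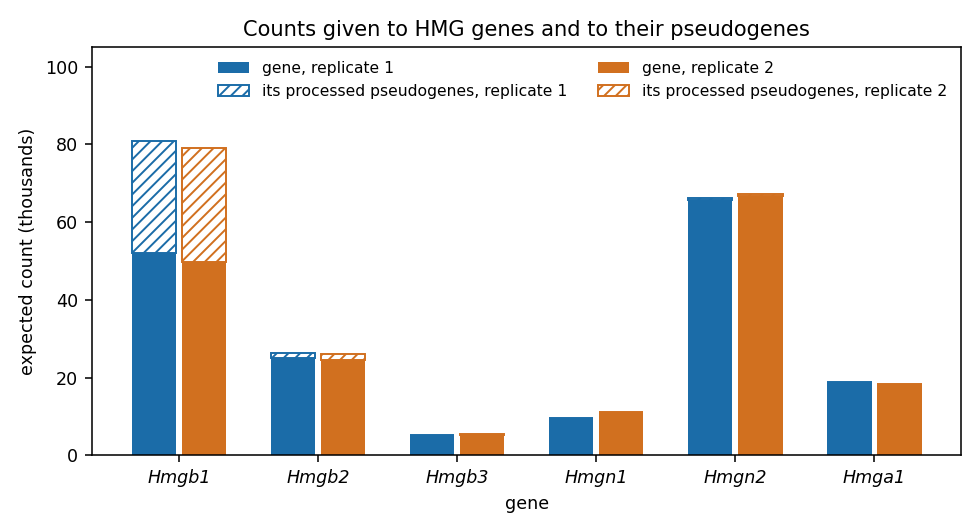
Expected counts given to each HMG gene (filled) and to its processed pseudogenes (hatched) in replicate 1 and replicate 2. The hatched part is 28958 and 29179 counts for Hmgb1, more than for any other member.

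For Hmgb2 the leading processed pseudogene was Gm13237 (chr4:146564453-146565087, minus strand), with 1254 and 1418 counts, and 246 of its 536 windows were found in Hmgb2. For Hmgn2, the protein-coding gene Gm10282 (chr8:72304110-72305260, minus strand) holds the coding sequence at 100% identity and had 912 and 865 counts, and the pseudogene Gm10182 had 406 and 422. For Hmga1, Hmga1b (chr11:120762794-120764419, plus strand), annotated as protein-coding, is 100% identical over the coding sequence and had 381 and 216 counts. The search also met Tmx3, a thioredoxin-related membrane protein gene, through a stretch 91.9% identical to the Hmgb2 coding sequence. It shares no 100-base window with Hmgb2, was counted at 6269 and 568, and was not added to any sum.

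In the 6 genes read, coding windows were shared with other genes more often than the rest of the transcript. In Hmgb1, 98.4% of the 100-base windows inside the coding sequence occurred in another gene, against 18.1% of those wholly outside it. In Hmgn2 and Hmga1 the coding share was 100%, in Hmgb3 55.8%, in Hmgb2 46.1% and in Hmgn1 26.6%. Outside the coding sequence no window of Hmgb2, Hmgb3 or Hmgn1 was shared, while 24.7% of those of Hmgn2 and 46.3% of those of Hmga1 were. These shares come from 1 chosen transcript per gene. The one chosen for Hmga1, Hmga1-206, held only 1.44% and 2.92% of the gene's counts. The read length was not among the sources used here, so windows stand in for reads.

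**Figure D4:**
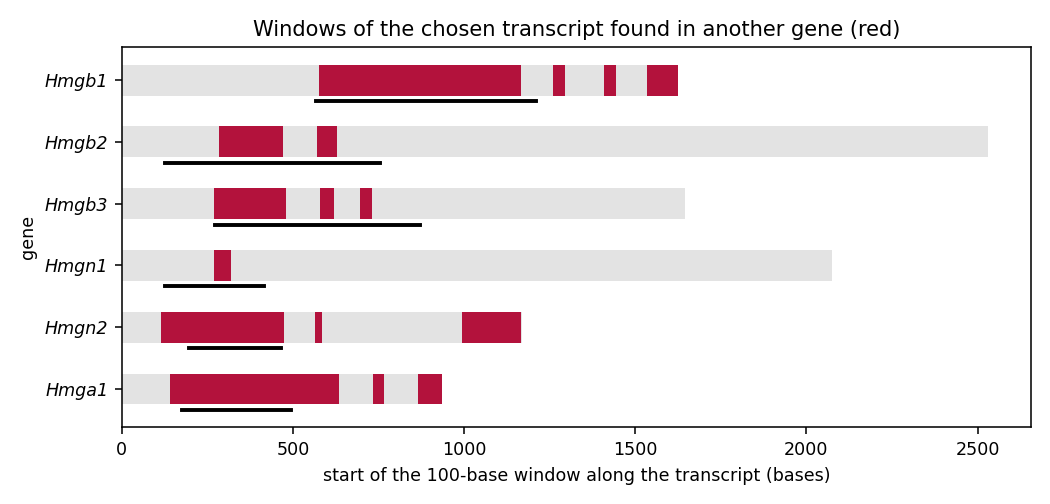
Start positions of 100-base windows along 1 chosen transcript of each HMG gene read, in bases, red where the window occurs in another gene and grey where it does not. Black lines mark the coding sequence, where red fills 98.4% of Hmgb1 windows and 26.6% of Hmgn1 windows.

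Genes that overlap a member on the chromosome could share its reads too, and no source states whether strand was used in counting. Uspl1, on the strand opposite to Hmgb1, had 948 and 6226 counts, and Mm2pr, a noncoding gene on its own strand, 660 and 144. AI413582, opposite Hmga1, had 1036 and 322 counts.

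In the transcript tables, Hmgn2, Hmgb2 and Hmgn1 had the same leading model in both libraries by TPM and by counts, and Hmgb3 and Hmga1 had different ones. Hmgb1 kept its leading model by TPM but not by counts. Hmgn2-203 held 97.6% and 97.7% of the Hmgn2 TPM, and Hmgb2 has 1 model. Hmgn1-201 held 84.4% and 94.0% of the Hmgn1 TPM, and a model of 261 bases that M21 no longer lists held 15.1% and 5.33% from 133 and 48.7 counts.

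For Hmgb1, 3 models annotated as retained introns held 48.1% and 56.7% of the TPM but 22.3% and 24.2% of the counts, since they are short. The level, rank and ratios of Hmgb1 given above are for all its models together. The retained-intron model Hmgb1-206 (654 bases) led in TPM with 31.5% and 36.4%, and Hmgb1-204 (461 bases) held 15.5% and 19.3%. The 3 models that code for 215 residues held 69.9% and 72.6% of the counts. Among these, Hmgb1-203 led in replicate 1 with 40.0% of the gene's counts against 27.02% for Hmgb1-201, and Hmgb1-201 led in replicate 2 with 44.7% against 27.7%.

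Hmga1 models differ by an insert of 33 bases, or 11 codons, just after the first AT hook. It is shown in capitals within its flanks because the models of 106 and 107 residues hold it and those of 95 and 96 residues do not.
Hmga1: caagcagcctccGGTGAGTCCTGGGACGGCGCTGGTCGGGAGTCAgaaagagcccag

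Hmga1-201, which lacks the insert and codes for 96 residues, held 67.3% of the gene's TPM in replicate 1 and 38.3% in replicate 2. Hmga1-203, which holds the insert and has 3 bases fewer than the longest form at another place, codes for 106 residues and held 30.3% and 56.9%, and the models of 107 residues held 2.38% and 4.81%. The leading form thus differed between the libraries while the gene's level differed by 1.16 times. For Hmgb3, Hmgb3-201 held 40.1% in replicate 1 and 0% in replicate 2, and Hmgb3-202 22.9% and 83.4%. In replicate 1 the posterior SDs were 306 on 1970 counts for Hmgb3-201 and 281 on 1146 counts for Hmgb3-202. By counts Hmgb3-204 led there, with 39.9%. All 3 of these models code for 200 residues, and their protein sequences were not compared. How far such shares vary between libraries of 1 sample was not tested.

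**Figure D5:**
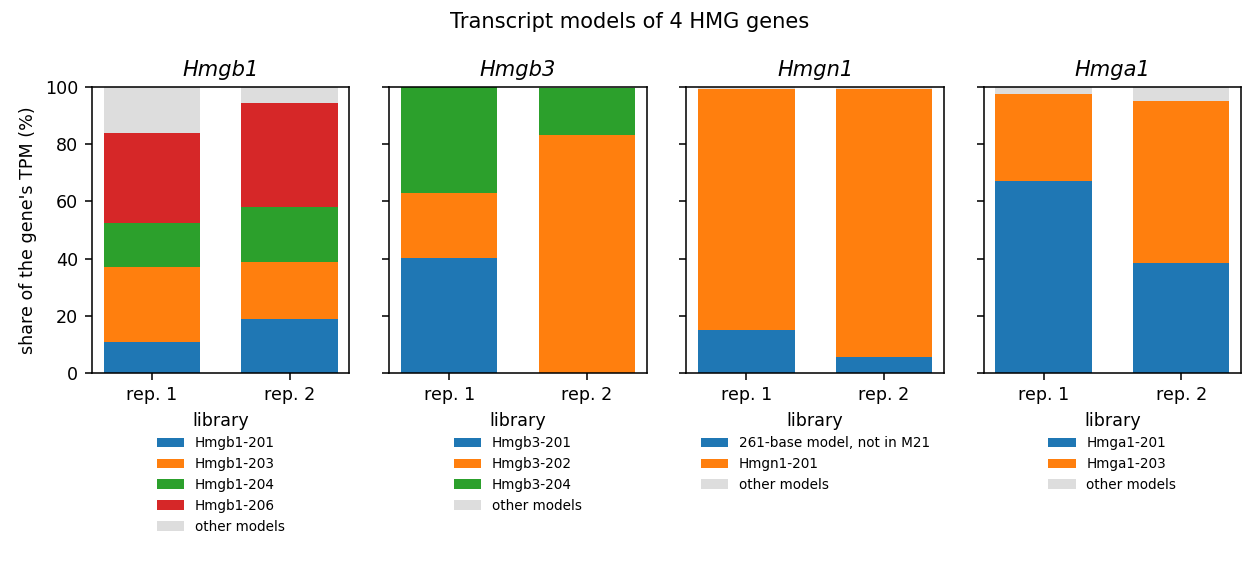
Share of each gene's TPM (%) given to its transcript models in the 2 libraries, for Hmgb1, Hmgb3, Hmgn1 and Hmga1. Hmga1-201 holds 67.3% in replicate 1 and 38.3% in replicate 2, and Hmgb3-202 22.9% and 83.4%.

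Promoter sequence was available from RefSeq (GRCm38.p6) for 7 of the 8 genes, as 9 windows of 300 bases that run from 250 before to 50 after a start site. Both strands were searched for the CCAAT box. The GC box was searched as GGGCGG on both strands. The letters TATAA stood for the TATA box. The cell cycle motif CHR was searched as TTTGAA, likewise on both strands. The first of these occurred in windows of all 3 HMGB genes, 4 times in Hmgb2, 3 times in Hmgb3 and 3 times in the upstream window of Hmgb1, as well as 2 times in Hmgn1 and 1 time in Hmgn2. It was not found in the windows of Hmga1 and Hmga2, and 37.4% of all 32851 promoters hold it. GGGCGG, which 35.7% of promoters hold, was found in at least 1 window of each of the 7 genes, up to 5 times in Hmgn1. The upstream window of Hmgb1 held none. The 9 windows were 57.7% to 77.0% G and C, against a median of 52.7% over all promoters. TTTGAA occurred 2 times in Hmgb2 and 1 time in Hmgb3, and 17.9% of promoters hold it. TATAA was in none of the 9 windows and in 24.9% of promoters. No M21 model of Hmgb2 starts inside its window, which ends before the annotated gene start. The 250 bases before the start are printed for Hmgb2 (chr8:57511593-57511842, plus strand) and Hmgb3 (chrX:71555667-71555916, plus strand), 2 genes whose windows hold the CCAAT box, the GC box and the CHR motif, with the first and second of these on either strand in capitals.
Hmgb2: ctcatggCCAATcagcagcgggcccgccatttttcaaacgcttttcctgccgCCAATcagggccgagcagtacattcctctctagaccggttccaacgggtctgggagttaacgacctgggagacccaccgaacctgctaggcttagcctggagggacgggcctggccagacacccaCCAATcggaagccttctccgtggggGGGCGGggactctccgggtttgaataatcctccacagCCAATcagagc
Hmgb3: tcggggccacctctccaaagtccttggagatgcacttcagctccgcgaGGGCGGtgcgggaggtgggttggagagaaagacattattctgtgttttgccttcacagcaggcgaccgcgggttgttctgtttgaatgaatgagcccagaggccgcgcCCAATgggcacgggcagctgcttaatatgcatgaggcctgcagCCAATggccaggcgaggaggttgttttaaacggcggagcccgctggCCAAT

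The Hmgb1 windows belong to separate starts. Models starting in the upstream window (chr5:149053008-149053307), which holds the 3 CCAAT motifs, gave 51.2% and 59.8% of the Hmgb1 TPM. In this share the short retained-intron model Hmgb1-206 accounted for 31.5% and 36.4% of the gene's TPM. The other window (chr5:149051567-149051866), with 4 GC boxes, gave 3.11% and 0.246%, through Hmgb1-202. The remaining models start in neither window, among them Hmgb1-203 with 26.5% and 19.8% of the TPM. Such matches describe letters only.

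Most genes of a list of other HMG proteins and chromatin factors were read. Of 15 genes, 13 had at least 1 count in both libraries and 12 more than 3, and 3 of the 13 averaging at least 100 counts were 4-fold apart, beside 50.9% of all such genes. Smarce1, a subunit of chromatin remodelling complexes, stood at 261 and 340 TPM, Ssrp1, a subunit of the FACT histone chaperone, at 180 and 103 TPM, Tfam, which packages mitochondrial DNA, at 129 and 107 TPM, and Hmg20b at 29.4 and 115 TPM. Hmgxb4 had 0 and 15 counts.

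The listed HMG-box transcription factors, not all of them T-cell genes, were led by Tcf7, at 613 and 569 TPM. These values overlap the 622 and 535 TPM of Hmga1. Lef1, its relative in early T cells, stood at 22.1 and 168 TPM, Tox, needed for CD4 lineage development, at 90.6 and 82.4 TPM, and Tox4 at 61.2 and 84.9 TPM. Of the 15 factors, reads of 5 were found in both libraries, 4 were read in a single library and 6 had none. Sox9 had 545 and 0 counts, Sox17 0 and 156, and Sox5 0 and 82. Of the 6 averaging at least 100 counts, 2 were 4-fold apart, beside 50.9% of all such genes.

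Linker histones, with which HMGN proteins compete, summed to 274 and 170 TPM over 8 genes, below either HMGN sum. These are RNA levels, and amounts of protein were not measured. H1f0 stood at 155 and 93.0 TPM and Hist1h1c at 40.0 and 46.6 TPM. Hist1h1d had 747 and 0 counts, Hist1h1e 280 and 0, and Hist1h1b 10.0 and 455. Of the 5 averaging at least 100 counts, 3 were 4-fold apart, beside 50.9% of all such genes.

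The partners of HMGB proteins in recombination and in the SET complex were all read in both libraries, 7 of 7. Nme1 stood at 172 and 274 TPM and Set, a histone chaperone, at 283 and 136. The recombinase gene Rag1 stood at 118 and 221 TPM and Apex1, a DNA repair nuclease, at 122 and 48.1. Of the 7, all averaging at least 100 counts, 2 were 4-fold apart, beside 50.9% of all such genes. Of 8 genes for HMGB1 receptors and ligand partners, 4 were read in both libraries and 4 in neither. Cxcl12, the chemokine with which HMGB1 forms a complex, stood at 75.4 and 337 TPM and its receptor Cxcr4 at 8.42 and 8.37, Cd24a at 157 and 89.1, and Tlr2 at 5.72 and 39.5.

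Of 6 fetal RNA-binding regulators linked to Hmga2, 3 had at least 1 count in both libraries and 1, Dicer1, had more than 3 counts in both. These 3 were 4-fold apart, beside 50.9% of all genes averaging at least 100 counts. Igf2bp3 had 3544 and 2 counts, Igf2bp2 1 and 971, Dicer1, which processes microRNA precursors, 179 and 1597, and Lin28b 0 and 1. Of 8 proliferation genes, 7 were read in both libraries, and the 8 summed to 1719 and 1631 TPM. None of the 7 was 4-fold apart, beside the same 50.9%. All 7 averaged at least 3000 counts, and over all genes that deep the share was 15.7%. Ccnb1 stood at 327 and 545 TPM, Pcna at 381 and 318, Cdk1 at 299 and 389 and Top2a at 504 and 170, and Tyms had 0 and 100 counts.

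The protein-coding genes whose TPM in the 2 libraries lay closest to each member, by distance on the log2 scale, were B2m and Rpl23a for Hmgb1, Bud31 and Birc5 for Hmgb2, Eif4e2 and Pdia6 for Hmgb3, Tcp1 and Rpl37 for Hmgn1, mt-Nd1 and Oaz1 for Hmgn2, and Atp5c1 and H2-K1 for Hmga1. Birc5, for example, stood at 492 and 414 TPM beside the 474 and 410 TPM of Hmgb2. With 2 libraries such likeness describes levels only.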

How the data were processed

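The data are 2 RNA-seq libraries of newborn mouse thymus, 1 group with replicate numbers from the labels. The deposited tables give, per gene and transcript, expected counts and TPM estimated by the authors, with posterior mean versions and posterior SDs, in columns named as RSEM writes them, per the file headers. The assembly is mm10 per the labels and annotation M4 per the deposited notes. The authors' isoform percent columns were not used, and shares were computed from TPM and counts instead. Aligner and read length were not given in the sources used here. Reads shared by similar genes were divided by the authors' estimate, which affects Hmgb1 and its copies most.

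Members were matched to GENCODE M21 (42462 of 43346 mouse gene IDs found). TPM was rescaled to 1000000 over mouse genes. Ratios use a pseudocount of 1 TPM, and 4-fold apart counts as a difference, with no test. Counting intervals are exact at 95%. The floor is 3 counts. Transcript sequences and coding frames come from M21, and copies were found with blastn 2.17.0. The design had assumed a protein table. Residue features were instead computed from coding sequences. Counts were rounded for edgeR 4.0.16 and DESeq2 1.42.0, used only as scalings. The 4-fold call and the interval were tested on simulated data, as a check of the calculation only. That check does not show how either behaves in these libraries. In them, 50.9% of genes averaging at least 100 counts were 4-fold apart. Named genes were all 8 members, up to 4 genes per list by mean TPM, list genes at 10 or more counts in a single library with 0 in the second, copies averaging at least 100 counts, up to 3 per member, transcripts with 10% of a gene's TPM and 2 nearest genes. Members and lists were chosen with earlier results of these data known.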

Additional observations from a re-analysis of the deposited data

How the results depend on the processing

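The 12 nearest genes and the 0 members 4-fold apart were the same under the other pseudocounts (0.1 and 10 TPM). With the 6 members read at 154 to 2785 TPM, these pseudocounts could hardly move a value, so this says nothing about stability. Adding the TPM of processed pseudogenes moved the mean level of Hmgb1 to 4406 TPM, of Hmgb2 to 560 TPM and of Hmgb3 to 173 TPM, and placing their counts on the member's own length put Hmgb1 at 3325 TPM. TPM as deposited, with spike-ins kept, gave 150.0 TPM for Hmgb3 and 239 TPM for Hmgn1. The share of genes 4-fold apart was 15.7% over genes averaging at least 3000 counts, 11.9% over all mouse genes, which include many at 0, and 27.4% with a pseudocount of 10 TPM. At 95% identity 43 processed pseudogenes were found in place of 88. The log2 ratios were recomputed under 6 alternatives: other pseudocounts, posterior means, both count scalings and pseudogenes at 90% identity. Of the 36 ratios 33 were negative, and the exceptions are those of Hmgn1 and Hmgb3 given above. The ratios under the other pseudocounts could hardly differ from the main ones at these levels. Leaving out either library of 2 moves a mean by a fixed part of its SD, so it says nothing about stability. No paired analysis was possible because there is 1 group. Depth limits what can be said of Hmgn3 and Hmga2, and 2 libraries from 13 pg of RNA give an SD of low precision.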
